A study of Mus musculus with 6 samples.

Results

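The miRNAs miR-10a, miR-10b, miR-196a and miR-196b are made from 5 hairpins that lie inside the 4 Hox gene clusters, and they were followed here through 6 small RNA libraries of mouse heart cardiomyocytes. Their members are the mature rows of the deposited count table whose names reduce to one of these 4 names once arm and copy number are dropped. There are 9 such rows among 1974 mature rows. Of these, 7 had at least 1 count in some library, and 5 reached 10 counts in at least 1 library. The libraries came from C57BL/6 mice that were wild type (WT) or carried the genotype LncSync-/- (knockout, KO), which lacks a long non-coding RNA. Adults gave 2 WT and 2 KO libraries, and embryos (e13.5, counted in days after conception) gave 1 library of each genotype. The labels give no adult age, no number of animals per library and no word on whether the replicates are different animals. The spread behind each p-value is thus that between the libraries in its fit, and could be technical. No other treatment is named for any group.

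Hox genes encode transcription factors that give cells along the head-to-tail axis their positional identity, and in mammals they sit in 4 clusters. The miR-10 and miR-196 genes are embedded between Hox genes and are conserved along with them. A miRNA represses messenger RNAs that pair with its seed, the bases from position 2 to position 8 counted from its 5′ end. Hox messenger RNAs are among the known targets of both families, Hoxb8 for miR-196 and Hoxd10 for miR-10b. miR-196 is known chiefly from posterior embryonic tissue such as the hindlimb.

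The mature sequences are shown because they decide which reads can be told apart. They come from RefSeq (GRCm38.p6, the build whose chromosomes mm10 carries), where all 9 members were found, and capitals mark the seed. Both miR-10 guide arms share 1 seed, and both miR-196 guide arms share another.
miR-10a-5p: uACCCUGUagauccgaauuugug
miR-10b-5p: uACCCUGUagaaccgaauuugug
miR-196a-5p: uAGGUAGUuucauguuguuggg
miR-196b-5p: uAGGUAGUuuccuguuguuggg
The opposite arms of the hairpins have seeds of their own.
miR-10a-3p: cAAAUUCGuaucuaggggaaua
miR-10b-3p: cAGAUUCGauucuaggggaaua
miR-196a-1-3p: cAACGACAucaaaccaccugau
Counted from the 5′ end, miR-10a-5p and miR-10b-5p differ by U12A alone over 23 bases, and miR-196a-5p and miR-196b-5p by A12C alone over 22 bases. A read counted with 1 mismatch allowed could be assigned to either member of a pair. The mismatch setting of the counting is not given in the sources used here, so levels of the single members of each pair are uncertain to that extent. The 3p arms of miR-10a and miR-10b differ at 3 positions (A3G, U9A and A10U). Among 1679 mature names in the RefSeq table, the miR-10 seed ACCCUGU belongs to 2 names and the miR-196 seed AGGUAGU to 2 names, the 4 members themselves.

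Sequence relatives of each family lie elsewhere in the genome. miR-99a, miR-99b and miR-100 share the seed ACCCGUA, which has the first 4 bases of the miR-10 seed. miR-100-5p and miR-10a-5p share a run of 11 bases, GUAGAUCCGAA, that starts at base 7 of miR-10a-5p and base 6 of miR-100-5p. The miR-196 seed overlaps that of let-7 by 6 bases, and the run AGGUAGU starts at base 2 of miR-196a-5p and base 3 of let-7a-5p.
miR-100-5p: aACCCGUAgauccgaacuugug
let-7a-5p: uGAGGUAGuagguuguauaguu

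Both miR-10 hairpins are printed with their 2 mature arms in capitals, since the results below turn on the balance between these arms. Mir10a is an entry of 110 bases at chr11:96317165-96317274 on the plus strand, in the HoxB cluster.
Mir10a: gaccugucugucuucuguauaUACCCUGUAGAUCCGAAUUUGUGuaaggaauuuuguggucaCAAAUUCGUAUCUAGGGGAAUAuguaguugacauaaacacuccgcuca
Mir10b is an entry of 68 bases at chr2:74726070-74726137 on the plus strand, in the HoxD cluster.
Mir10b: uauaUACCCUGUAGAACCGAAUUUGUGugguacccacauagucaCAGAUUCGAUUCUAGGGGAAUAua
In the GENCODE M21 annotation (GRCm38), Mir10a lies between genes, 11044 bp after the end of Hoxb5 and 993 bp before Hoxb4. Mir10b lies in introns of the annotated spans of Hoxd4 and Hoxd3. The miR-196a-5p sequence is made by 2 hairpins that the count of this arm cannot separate. Mir196a-1 (chr11:96265164-96265265, plus strand) lies between Hoxb13 and Hoxb9, 6192 bp before the latter. Mir196a-2 (chr15:102973350-102973434, plus strand) lies 1457 bp after Hoxc10 and 3005 bp before Hoxc9, in an intron of the long annotated span of Hoxc5. Mir196b (chr6:52230081-52230165, minus strand) overlaps an annotated exon of Hoxa9 and lies 1032 bp after Hoxa10. Mir10a and Mir196a-1 share the HoxB cluster.

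**Figure D1:**
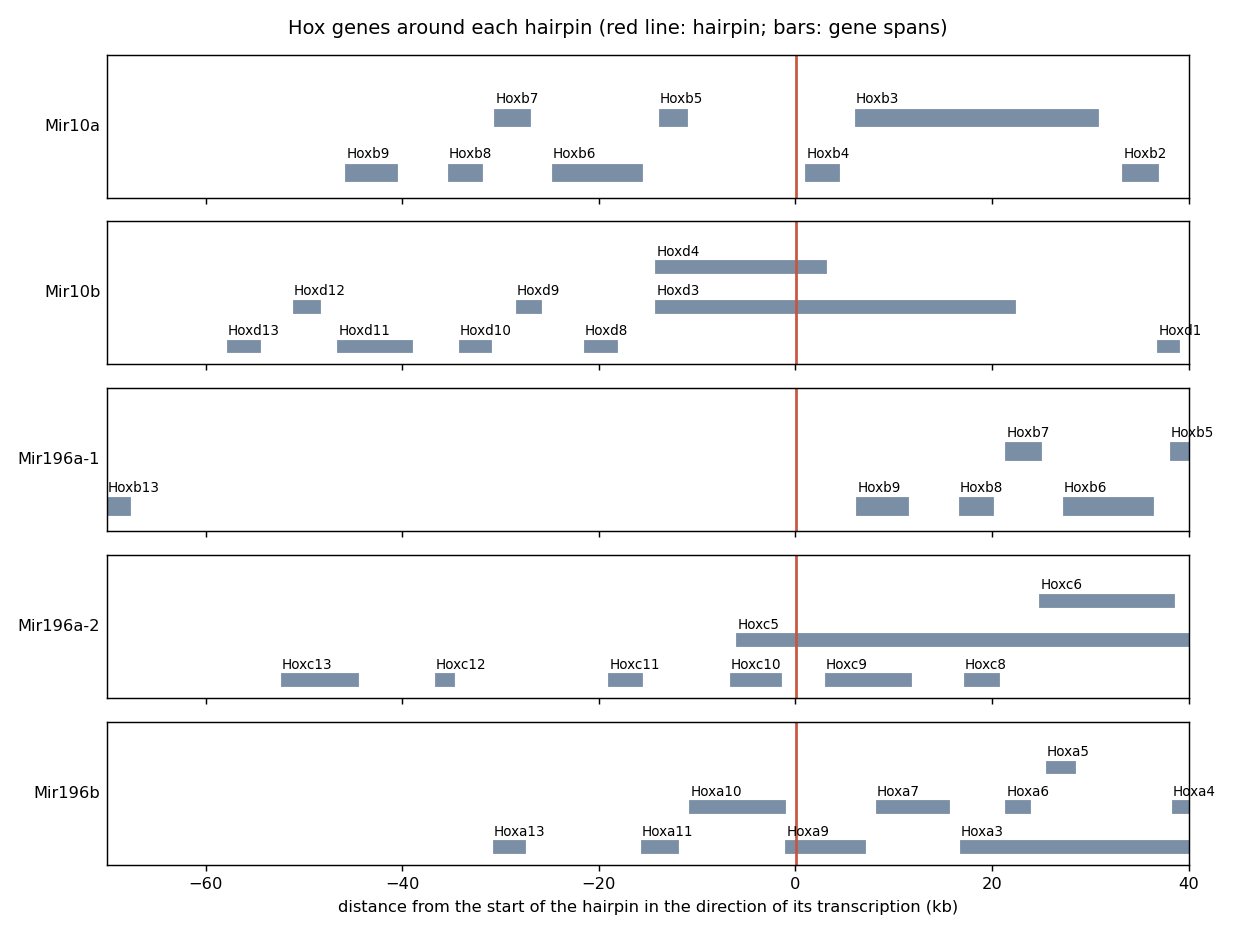
Annotated spans of Hox genes (grey bars, GENCODE M21) around each of the 5 hairpins (red line), by distance in kb from the 5′ end of the hairpin in the direction of its transcription. The miR-10 hairpins sit beside Hoxb4 and Hoxd4, and the miR-196 hairpins near Hoxa9 and Hoxa10, Hoxb9, and Hoxc9 and Hoxc10.

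Mature counts totalled 14347091 to 17933518 in the adult libraries, 8944552 in the e13.5 WT library and 2671957 in the e13.5 KO library. A count of 0 therefore allows up to 3 counts, or 0.167 to 0.209 CPM (counts of a miRNA per 1000000 mature counts of its library) in an adult library, 0.335 CPM in e13.5 WT and 1.12 CPM in e13.5 KO. The table holds no value for lncSync itself. miR-322-3p, of the X-linked miR-322/503 cluster, had 0 counts in all 3 KO libraries and 3617 to 16789 in the WT libraries. Levels below are CPM after TMM scaling (edgeR's trimmed mean of M-values, which sets the bulk of miRNAs equal between libraries), unless library-total CPM is named. The scaling matters between stages: TMM multiplied the effective size of the e13.5 KO library by 2.17 and that of adult KO replicate 2 by 0.567. Intervals on counts cover counting error only.

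The cardiomyocyte label was checked on muscle markers. miR-1a and miR-133a, which act in muscle differentiation, had at least 253429 and 4093 counts (arms summed) in every library, and no defining marker of cardiac muscle was at 0. Over the 13 rows of the cardiac muscle list the summed level was 292964 to 696567 CPM in adults and 45528.5 to 117717 CPM at e13.5. Most of the e13.5 sum was miR-1a, with 112729 of 117717 CPM in WT and 43796 of 45528.5 CPM in KO. miR-133a stood at 170552 to 220211 CPM in adults, against 1648 CPM in e13.5 WT and 707 CPM in e13.5 KO. miR-133b (66.7 and 16.8 CPM at e13.5) and miR-208a (51.5 and 5.88 CPM) were likewise far below adults, whereas miR-208b-3p was higher (log2 fold 4.59). Of the 10 tested rows of this list, 8 were lower and 1 was higher at e13.5 (edgeR, adjusted p under 0.05). The epithelial list (miR-200 family) moved the other way, from 43.1 to 72.5 CPM in adults to 942 to 1171 CPM at e13.5, with 6 of 7 tested rows higher, and the liver miRNA miR-122 went from 0.552 to 3.99 CPM to 36.4 to 88.5 CPM. Leukocyte rows were at 1468.5 to 2222 CPM in adults and 53.5 to 59.3 CPM at e13.5, with 4 of 7 lower. The endothelial miR-126a arms were at 17145.5 to 54749 and 7546 to 15297 CPM, both lower at e13.5. Erythroid rows ranged from 9958 to 23166 and from 603 to 6613 CPM, with 2 of 5 higher and 2 lower. Smooth muscle and fibroblast rows ranged from 82895 to 174999 and from 99097 to 286235 CPM, with 0 of 8 higher and 2 lower, neuronal rows from 1578 to 1769 and from 1016 to 1202 CPM (2 of 4 lower), and the skeletal muscle miR-206 from 11.5 to 46.4 and from 1.98 to 4.67 CPM (its 1 tested row lower). No listed marker miRNA (arms summed) was at 0 in all libraries, although miR-124 was at 0 in e13.5 WT and miR-429 in adult KO replicate 1. These marker levels move with stage alongside the results below, and their part in them was not tested. In bulk RNA, fewer cells of a type and less RNA per cell cannot be told apart.

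miR-10a-5p was the most abundant member in every library. It had 20211 and 10607 counts in adult WT, 5079 and 12318 in adult KO, 31810 in e13.5 WT and 15385 in e13.5 KO. Scaled, these were 1249 and 836 CPM, 368 and 1233 CPM, 2864 CPM and 2659 CPM. Both e13.5 libraries lay above all 4 adult libraries, and adult KO replicate 1 lay lowest. By rank within a library, which needs no scaling, miR-10a-5p stood between 61st and 94th among mature miRNAs in adults and 24th and 25th at e13.5. Its share of mature counts was 0.0354% to 0.113% in adults, 0.356% in e13.5 WT and 0.576% in e13.5 KO.

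The first comparison asked how levels differ between e13.5 and adult cardiomyocytes. miR-10a-5p averaged 922 CPM ± 415 (SD, n = 4) in the adult libraries, against 2762 CPM ± 145 (SD, n = 2) at e13.5. In the model over all 6 libraries with genotype as a term it rose at e13.5, with a log2 fold change of 1.60 (SE 0.52, edgeR quasi-likelihood adjusted p = 0.0281). The passenger arm miR-10a-3p had 317 and 109 counts in adult WT, 89 and 137 in adult KO, 45 in e13.5 WT and 12 in e13.5 KO. These were 19.6, 8.59, 6.45 and 13.7 CPM in adults and 4.05 and 2.07 CPM at e13.5. Here both e13.5 libraries lay below all adult libraries. miR-10a-3p fell by 2.02 on the log2 scale at e13.5 (SE 0.73, edgeR adjusted p = 0.0411). The 2 arms of the Mir10a hairpin thus moved in opposite directions.

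miR-10b-5p, from the HoxD cluster, ordered the 4 adult libraries as miR-10a-5p did, at a lower level. It had 8132 and 2767 counts in adult WT, 1331 and 3180 in adult KO, 8133 in e13.5 WT and 4562 in e13.5 KO. Scaled, these were 503, 218, 96.5 and 318 CPM in adults and 732 and 788 CPM at e13.5. The e13.5 libraries again lay above all adult libraries. The log2 fold at e13.5 was 1.499 (SE 0.59), which missed the threshold (edgeR adjusted p = 0.0547). Counts of the whole Mir10b hairpin, which add both arms, had a log2 fold of 1.53 and passed (edgeR adjusted p = 0.0393), as did those of Mir10a (1.63, edgeR adjusted p = 0.0193). miR-10b-3p had 52, 16, 23 and 24 counts in adults and 9 and 5 at e13.5. Its log2 fold of -1.34 (SE 0.95) did not pass (edgeR adjusted p = 0.243).

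**Figure D2:**
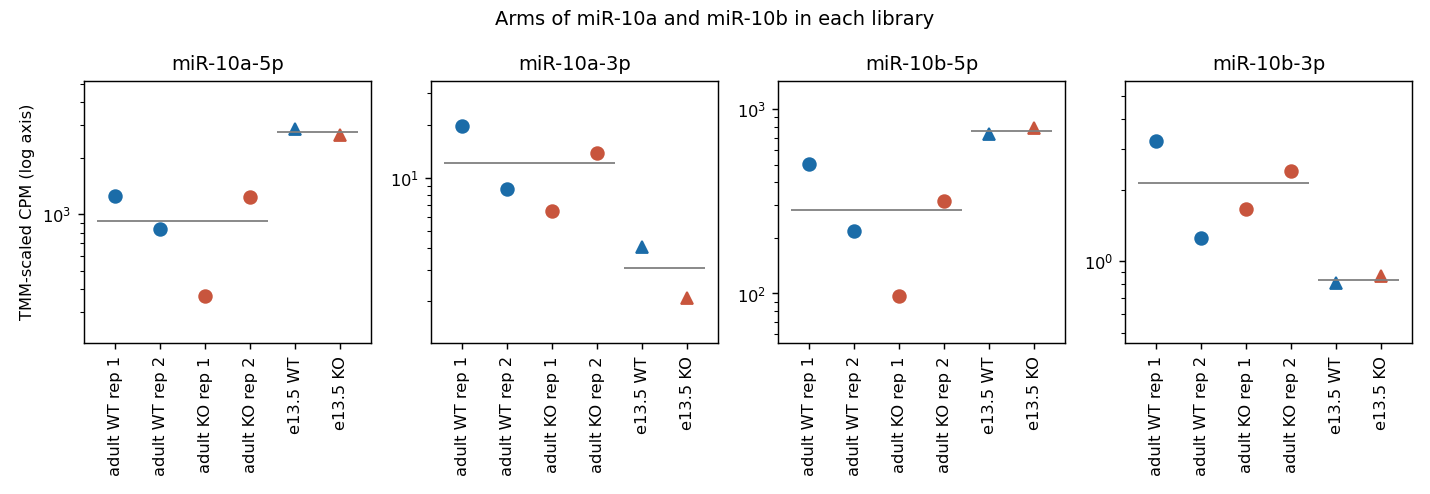
TMM-scaled CPM (log axis, a different range in each panel) of the 4 arms of miR-10a and miR-10b in the 6 libraries. Circles are adult, triangles e13.5, blue WT and red KO, and grey lines are the means over the 4 adult and the 2 e13.5 libraries. Both 5p arms are higher and both 3p arms lower at e13.5 on this scale, and adult KO replicate 1 has the lowest 5p arms.

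Of the 5 members that passed the filter on low counts, 1 rose, 1 fell and 3 did not pass. Across all 679 miRNAs tested, 57.7% passed between stages, 29.3% higher and 28.4% lower at e13.5, so 2 of 5 is no more than the background. Stages that do not overlap in TMM-scaled CPM were likewise common, 37.1% of the tested miRNAs with e13.5 above all adults and 37.3% below. The median log2 fold over all tested miRNAs was -0.06 under TMM scaling, 0.72 under DESeq2's median-of-ratios factors and 0.93 under library totals, and the calls split into 199 higher and 193 lower, 241 and 133, and 263 and 120. Relative to that median the fold of miR-10a-5p was 1.66, 1.68 and 1.87, that of miR-10b-5p 1.56, 1.58 and 1.802, and that of miR-10a-3p -1.95, -1.96 and -1.88. Under the latter scalings miR-10b-5p passed (edgeR adjusted p = 0.0133 and 0.00157), whereas miR-10a-3p did not (edgeR adjusted p = 0.155 and 0.379), so the opposite movement of the arms as a pair of calls rests on TMM. On library-total CPM miR-10b-3p overlapped between stages, where 69.1% of tested miRNAs did not (74.4% on TMM-scaled CPM).

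Call strength depended on single libraries. miR-10a-5p no longer passed without adult WT replicate 2 (log2 fold 1.89, edgeR adjusted p = 0.0798), without e13.5 WT (1.76, adjusted p = 0.0768 in edgeR) or without e13.5 KO (1.46, adjusted p = 0.138 in edgeR), and passed without each of the other 3. Its log2 fold lay between 1.46 and 2.79 in all 15 alternatives and that of miR-10b-5p between 1.03 and 2.73. miR-10b-5p passed in 10 of 15 alternatives, among them without adult WT replicate 1 and without adult KO replicate 2. miR-10a-3p passed in 3 of 14, and leaving out any 1 of the 6 libraries ended its call. With WT libraries alone the log2 folds were 1.46 for miR-10a-5p, 1.03 for miR-10b-5p and -1.79 for miR-10a-3p. With KO libraries alone they were 2.21, 2.40 and -1.801. Each of these fits sets 1 e13.5 library against 2 adult ones, so its spread comes from 2 adult libraries and the lone e13.5 library is assumed to vary like them, and its p-values are not used as support.

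**Figure D3:**
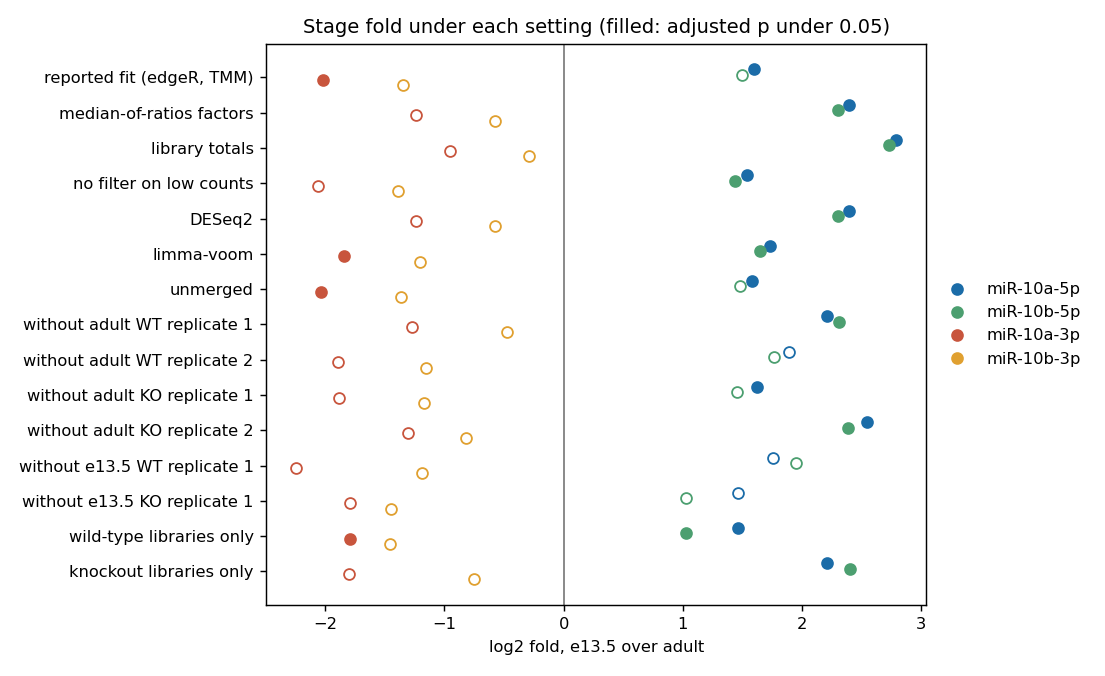
Log2 fold between e13.5 and adult libraries (x axis) for the 4 miR-10 arms under the reported fit and 14 other settings (rows). Filled points have an adjusted p under 0.05. The 5p arms stay right of 0 and the 3p arms left of 0 in all settings drawn, while whether a point is filled changes with the setting.

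The balance of the arms within a library does not depend on scaling between libraries. For Mir10a the 5p to 3p ratio of counts was 63.8 and 97.3 in adult WT and 57.1 and 89.9 in adult KO. It was 707 in e13.5 WT (95% counting interval 528 to 969) and 1282 in e13.5 KO (734 to 2482). The 3p arm thus made up 1.02% to 1.72% of the arm counts in adults, 0.141% in e13.5 WT (Wilson 95% interval 0.106 to 0.189) and 0.0779% in e13.5 KO (0.0446 to 0.136). For Mir10b the ratio was 156 and 173 in adult WT and 57.9 and 132.5 in adult KO. It was 904 in e13.5 WT (95% counting interval 476 to 1977) and 912 in e13.5 KO (391 to 2811). These 2 ratios rest on 9 and 5 counts of the 3p arm. In both hairpins every e13.5 ratio was above every adult ratio.

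On the log2 scale the Mir10a ratio was 6.23 ± 0.37 (SD, n = 4) in adult libraries, compared with 9.89 ± 0.61 (SD, n = 2) at e13.5, a difference of 3.66. The Mir10b ratio was 6.91 ± 0.72 (SD, n = 4) and 9.83 ± 0.01 (SD, n = 2), a difference of 2.92. The SD of 0.01 is far narrower than the counting intervals of the Mir10b ratios at e13.5, so it is no measure of their precision. For each hairpin the stage difference had an exact two-sided permutation p of 0.0667, the smallest that 4 against 2 libraries allow. Adjusted over the 3 ratios tested, this permutation p was 0.1. Within genotypes the Mir10a difference was 3.17 in WT and 4.16 in KO, and that of Mir10b 2.46 and 3.38. Such shifts were common among hairpins. Of 118 hairpins with both arms tested and counted in all 6 libraries, 44.1% had a 5p to 3p ratio at e13.5 above all adults, and 70.3% did not overlap in either direction. The median absolute difference was 2.41, and Mir10a ranked 31st and Mir10b 52nd by absolute difference. Both arms passed in opposite directions in 9 of these hairpins (7.63%), Mir10a among them.

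The ratio between the 2 miR-10 guide arms showed no difference between stages beyond its spread. miR-10a-5p had 2.49 and 3.83 times the counts of miR-10b-5p in adult WT, 3.82 and 3.87 times in adult KO, 3.91 times in e13.5 WT and 3.37 times in e13.5 KO. Counting intervals were narrow, 2.42 to 2.55 for adult WT replicate 1 and 3.59 to 4.06 for adult KO replicate 1, the widest. Adult WT replicate 1 stood below the rest. The log2 ratio was 1.78 ± 0.31 (SD, n = 4) in adult libraries, compared with 1.86 ± 0.15 (SD, n = 2) at e13.5, a difference of 0.08 (exact two-sided permutation p = 0.8). Without adult WT replicate 1 the difference was -0.08. Within genotypes it went opposite ways, 0.34 in WT and -0.19 in KO. Ligation and counting can differ between sequences, so the ratio compares libraries rather than molecules of 2 miRNAs. Reads assigned to the wrong member of this pair, 1 base apart, would also enter the ratio, and their part was not tested.

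**Figure D4:**
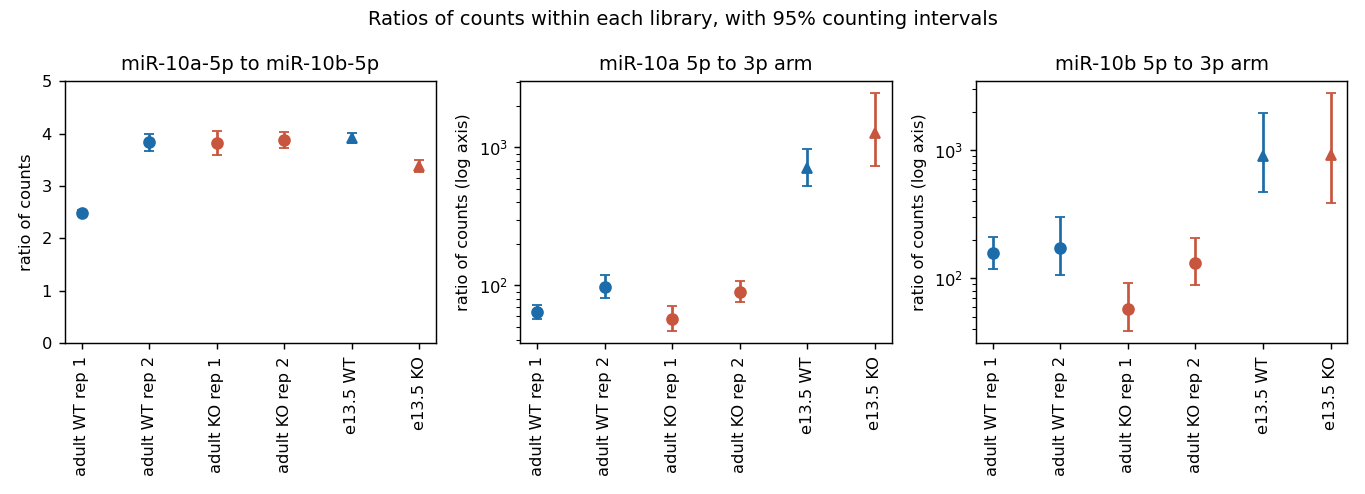
Ratio of counts within each library, with 95% counting intervals, for miR-10a-5p over miR-10b-5p (linear axis) and for 5p over 3p arms of miR-10a and miR-10b (log axes). Circles are adult, triangles e13.5, blue WT and red KO. The arm ratios at e13.5 are 707 or more against 173 or less in adults, whereas the ratio of miR-10a-5p to miR-10b-5p is between 2.49 and 3.91 throughout.

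The second comparison asked whether loss of lncSync changes these miRNAs in adults. In the 4 adult libraries miR-10a-5p averaged 1043 CPM ± 292 (SD, n = 2) in WT and 800.5 CPM ± 611 (SD, n = 2) in KO, and miR-10b-5p 360.3 CPM ± 201 (SD, n = 2) and 207 CPM ± 157 (SD, n = 2). The log2 folds, KO over WT, were -0.32 (SE 0.62) and -0.74 (SE 0.68), and those of miR-10a-3p and miR-10b-3p -0.43 (SE 0.65) and -0.08 (SE 0.87). In edgeR 0 of 4 tested members passed, each with an adjusted p of 0.999, 0 had an unadjusted p under 0.05, and 0 passed in DESeq2 or limma-voom. Over all 544 miRNAs tested 0.735% passed. The value depended on which KO replicate was used. With replicate 1 as the only KO library, miR-10a-5p and miR-10b-5p were lower than in WT (log2 folds -1.51 and -1.92, edgeR adjusted p = 0.00818 and 0.00132). With replicate 2 as the only KO library the log2 folds were 0.30 and -0.12 (edgeR adjusted p = 0.967 and 0.973). In both fits the spread comes from the WT libraries alone.

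Adult KO replicate 1 differed in other miRNAs too. Its endothelial sum of 17145.5 CPM and its cardiac sum of 292964 CPM were the lowest of the adult libraries, and its erythroid sum of 23166 CPM the highest. The cardiac sum follows miR-1a (84758 CPM there, against 161109 to 451747 CPM). miR-499 (3949 CPM, against 5402 to 13444 CPM) and miR-133b (11780 CPM, against 12372.5 to 15193 CPM) were also lowest there. So was miR-208b (1.38 CPM, against 4.14 CPM or more). In contrast, miR-208a, a miRNA of a cardiac myosin gene, was highest there (1540 CPM, against 884 to 1201 CPM). miR-133a, at 190936 CPM, was not the lowest. The erythroid miRNA miR-451a stood there at 418 CPM, against 79.5 to 120 CPM in the other adult libraries. The part of these differences in the low miR-10 values was not tested.

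At e13.5, with 1 library per genotype and so no test, the 5p arms of miR-10 were close between genotypes on the TMM scale. The log2 fold, KO over WT, was -0.11 for miR-10a-5p, 0.11 for miR-10b-5p, -0.91 for miR-10a-3p and -1.43 for miR-196b-5p. Direction for miR-10a-5p depended on the scaling, with 0.70 by library totals and 0.03 by median-of-ratios factors. In library-total CPM the KO to WT ratio was 1.62 (95% counting interval 1.59 to 1.65) for miR-10a-5p and 1.88 (1.81 to 1.95) for miR-10b-5p. Of the 4 members with at least 10 counts in either library, 0 were 4-fold apart, against 18.2% of the 565 such miRNAs.

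Averaged over both stages, with 3 libraries per genotype, 0 of 5 tested members passed, against 0.736% of 679 miRNAs. The log2 folds were -0.29 (SE 0.51) for miR-10a-5p, -0.50 (SE 0.58) for miR-10b-5p and 0.35 (SE 1.23) for miR-196b-5p, each with an edgeR adjusted p of 0.989. The lowest unadjusted p of the 5 members was 0.338 in edgeR, and 0 passed in DESeq2 or limma-voom. The genotype by stage interaction, whose spread comes from the adult replicates alone, gave 0 of 5 members in edgeR, DESeq2 and limma-voom, and 0 of 769 miRNAs (0%) in edgeR, with 46 at an unadjusted p under 0.05, 4 past the threshold in DESeq2 and 0 in limma-voom. Its estimates were 0.26 (SE 1.06) for miR-10a-5p and 0.89 (SE 1.16) for miR-10b-5p. Without adult KO replicate 2 the estimate for miR-10b-5p was 2.05, but the spread in that fit comes from the adult WT libraries alone.

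miR-196 was scarce in all libraries, with no arm above 2.68 CPM of library totals. miR-196b-5p had 7 and 4 counts in adult WT, 5 and 15 in adult KO, 24 in e13.5 WT and 4 in e13.5 KO. In library-total CPM these were 0.390 and 0.238, 0.349 and 0.852, 2.68 and 1.497. Pooled by stage, 28 counts at e13.5 against 31 in adults gave a CPM ratio of 5.18 (95% counting interval 2.997 to 8.93), but this ratio takes no account of the spread between libraries, and on TMM-scaled CPM the stages overlapped (0.315 to 1.501 in adults, 0.691 and 2.16 at e13.5). In the model over libraries its log2 fold was 1.30 (SE 1.29, edgeR adjusted p = 0.402). The estimate rests on e13.5 WT, since without that library it was -0.39.

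miR-196a-5p, the product shared by 2 hairpins, had 0 to 2 counts in each adult library, 4 in e13.5 WT and 1 in e13.5 KO. It did not pass the filter on low counts. Over each stage it summed to 5 counts, a library-total CPM ratio of 5.74 with a counting interval of 1.32 to 24.9. On TMM-scaled CPM the ratio of means was 2.54 and the stages overlapped, with up to 0.200 CPM in adults and 0.173 and 0.360 CPM at e13.5. miR-196a-1-3p, the arm that marks the HoxB copy, had 0 counts in all 4 adult libraries, 6 in e13.5 WT and 3 in e13.5 KO. The 3 counts in e13.5 KO equal the limit that a count of 0 allows in a library, so no fold is given. miR-196a-2-3p, the arm of the HoxC copy, and miR-196b-3p had 0 counts in all libraries, below the limits given above.

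**Figure D5:**
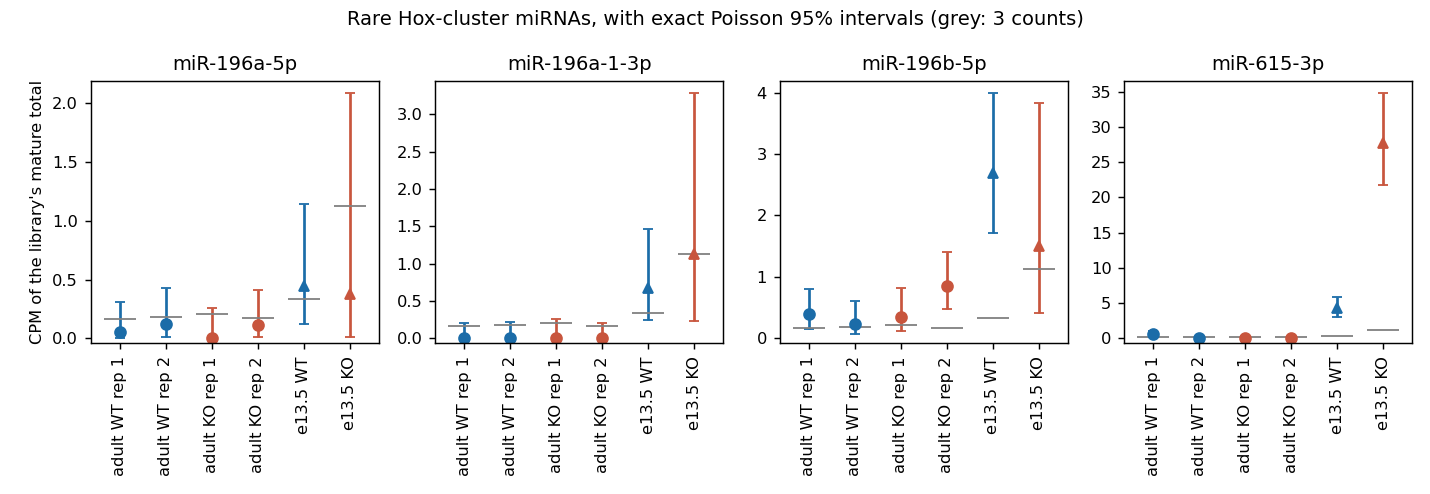
CPM of the library's mature total, with exact Poisson 95% intervals, for 3 arms of miR-196 and for miR-615-3p (each panel has its own range). Grey marks are 3 counts in that library, circles adult, triangles e13.5, blue WT and red KO. miR-196a-5p stays at or near the grey marks, and miR-615-3p reaches 27.7 CPM in e13.5 KO.

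Another Hox-cluster miRNA, miR-615, whose hairpin lies in the HoxC cluster, was set beside the members. miR-615-3p had 10 and 0 counts in adult WT, 0 in both adult KO libraries, 38 in e13.5 WT and 74 in e13.5 KO. In the model its log2 fold, e13.5 over adult, was 6.02 (SE 1.64, edgeR adjusted p = 0.0132). It passed the filter on low counts only through its e13.5 counts, and was not tested in the fit of adult libraries. Its p-value is therefore not used as support. Between stages 57.7% of all tested miRNAs passed. All 10 adult counts lay in adult WT replicate 1, and library-total CPM was 4.25 in e13.5 WT and 27.7 in e13.5 KO. Without e13.5 KO the log2 fold was 3.41 and did not pass (edgeR adjusted p = 0.299). Without adult WT replicate 1 or without e13.5 WT the fitted fold was larger, but it is then set against counts of 0 or rests on 1 e13.5 library. The miR-615-5p row held 0 counts.

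The relatives of miR-10 by sequence showed calls at about the rate of all miRNAs. Of the 6 arms of miR-99a, miR-99b and miR-100 tested between stages, 1 rose, 2 fell and 3 did not pass, against 57.7% of all tested miRNAs past the threshold (29.3% higher, 28.4% lower). Of the 3 arms with the seed ACCCGUA, all 5p, 0 rose and 1 fell. miR-99a-5p fell by 1.47 on the log2 scale (edgeR adjusted p = 0.0167) and did not pass without adult WT replicate 1, adult WT replicate 2, e13.5 WT or e13.5 KO (edgeR adjusted p = 0.153, 0.153, 0.0535 and 0.114). miR-100-5p, the relative closest to miR-10a-5p in sequence, had 2236 to 2681 CPM in adults and 4674 and 4645 CPM at e13.5, a log2 difference of 0.89 that did not pass (edgeR adjusted p = 0.0698).

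Among the 3p arms, miR-99b-3p stood at 20.8 to 36.4 CPM in adults, 96.8 CPM in e13.5 WT and 458 CPM in e13.5 KO. It rose between stages (log2 fold 3.03, edgeR adjusted p = 0.00412), yet without e13.5 KO the log2 fold was 1.596 and did not pass (edgeR adjusted p = 0.0864). miR-100-3p had 46 to 63 counts in adults and 3 and 0 at e13.5, and fell by 4.58 (edgeR adjusted p = 0.00976). Without e13.5 KO its log2 fold was -3.64 and did not pass (edgeR adjusted p = 0.0588).

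The let-7 and miR-98 arms that overlap the miR-196 seed are the 5p arms. Of 9 tested, 6 fell, 2 rose (let-7e-5p and let-7i-5p) and 1 did not pass, with a median log2 fold of -1.64 against -0.06 over all tested miRNAs, of which 28.4% fell and 29.3% rose. The 11 tested 3p arms of these hairpins, which do not carry that seed, had 8 lower, 0 higher and 3 that did not pass. In adults 0 of 6 arms of the first list and 0 of 20 of the second passed between genotypes in edgeR.

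The miRNAs whose pattern was most like that of the members were chosen by Pearson's r of log2 TMM-scaled CPM over the 6 libraries, among 321 with a mean of at least 10 CPM. For miR-10a-5p they were miR-431-5p (r = 0.988), miR-382-3p (0.983) and miR-421-3p (0.983), and for miR-10b-5p miR-431-5p (0.973), miR-362-5p (0.939) and miR-421-3p (0.938). The 2 miR-10 guide arms had an r of 0.976 with each other. All these values share libraries, scaling and the gap between stages, and are given as a description. miR-431-5p, miR-382-3p and miR-421-3p reached the mean of 10 CPM through e13.5. In adults they stood at 0.362 to 6.55, 0.0725 to 4.08 and 4.78 to 10.2 CPM. In e13.5 WT they stood at 25.3, 131 and 20.6 CPM, and in e13.5 KO at 20.9, 64.1 and 20.7 CPM. miR-431-5p had 106 and 49 counts in adult WT, 5 and 44 in adult KO and 281 and 121 at e13.5. Adult KO replicate 1 was lowest, which the choice of miR-431-5p by correlation over these same libraries favours.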

How the data were processed

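Small RNA libraries were built with the NEXTFLEX kit from DNase-treated total RNA, per the labels' protocols. The authors deposited 1 table of unnormalised read counts per miRNA with 1 column per library. Reads were placed on mm10, per the submitters' processing notes. For the aligner, counter, trimming and treatment of multiply matching reads, no detail was found (not given in the sources used here). The table held 1234 hairpin and 1974 mature rows, and mature counts were used. Mature rows agreeing within 1% of their total (at least 20 counts, 3 libraries) were merged, which removed 22 rows and no member.

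Tests used edgeR 4.0.16 (quasi-likelihood, R 4.3.3) with TMM scaling and filterByExpr at a minimum count of 10, and Benjamini-Hochberg adjustment over all miRNAs tested at 0.05, two-sided. Stage and genotype over both stages came from 1 additive fit of 6 libraries with 3 residual degrees of freedom, adult genotype from the 4 adult libraries, and the interaction from 4 group means. Alternatives were DESeq2 1.42.0, limma-voom 3.58.1, other scalings, no filter, unmerged or hairpin counts, a replicate block and left-out libraries. The fits were tested on simulated data. The stage fit recovered 4.17% of 2-fold, 14.3% of 4-fold and 89.6% of 16-fold changes. The adult genotype fit recovered 12.5%, 30% and 98% of them. Both fits thus missed most 4-fold and some 16-fold changes, so a member that did not pass may still differ by such amounts. Wilson, exact Poisson and exact binomial intervals are at 95%. The arm ratios, the split of the relatives by arm and the left-out libraries for relatives and miR-615 were added after the data were seen.

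Members and lists were chosen with earlier results of these data known. Every member is accounted for, and those with at least 10 counts in a library are described in full. The lists were miR-615, the relatives of miR-10 and of miR-196, and cell type markers (liver, epithelial, neuronal, smooth muscle with fibroblast, endothelial, leukocyte, erythroid, skeletal muscle, cardiac muscle). The 3 most similar miRNAs are named for each guide arm with a mean of at least 10 CPM. Log2 CPM values, used for the similarity search, the e13.5 genotype folds and the check on replicate numbers, carry a prior count of 2. Log2 folds from the fits and log2 ratios of counts do not use it.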

Additional observations from a re-analysis of the deposited data

Results flagged for a closer look

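In 2 of 9 member levels and ratios examined over the 4 adult libraries, 1 library lay far from the other 3 by Dixon's ratio at the 95% level, which chance alone exceeds in about 1 group of 20. The ratio of miR-10a-5p to miR-10b-5p counts was 2.49 in adult WT replicate 1, against 3.82 to 3.87 in the other adult libraries (Dixon's ratio 0.958). miR-196b-5p stood at 1.501 TMM-scaled CPM (15 counts) in adult KO replicate 2, against 0.315 to 0.433 in the others (Dixon's ratio 0.901).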

How the results depend on the processing

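The alternatives gave 360 values beside the reported ones. Leaving out 1 library at a time, members past the threshold numbered 0 to 2 between stages, 0 to 2 between adult genotypes and 0 to 1 for the interaction, and all miRNAs past it 261 to 381, 5 to 47 and 0 to 87, and 3 to 5 for genotype over both stages. With KO libraries only, 231 passed between stages against 392. In adults 9 passed without a filter on low counts and 0 with limma-voom, against 4. For the interaction 1 passed with library totals, 2 without a filter and 4 with DESeq2, against 0. No other setting moved such a count by more than 1.5 times.

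Signs turned only for members that had not passed. Leaving out 1 library at a time, the stage log2 fold of miR-196b-5p ran from -0.39 (without e13.5 WT) to 2.50. The adult genotype log2 fold ran from -1.51 to 0.30 for miR-10a-5p, from -1.15 to 0.27 for miR-10a-3p and from -0.72 to 0.73 for miR-10b-3p, above 0 without KO replicate 1 or, for both 3p arms, also without WT replicate 1. Genotype over both stages ran from -1.01 to 0.14 for miR-10a-5p, from -1.13 to 0.092 for miR-10b-5p, from -0.48 to 0.49 for miR-10b-3p and from -0.88 to 1.28 for miR-196b-5p, which was at -0.016 with limma-voom. The interaction ran from -0.38 to 1.44 for miR-10a-5p, from -1.12 to 0.21 for miR-10a-3p (0.62 with library totals) and from -0.52 to 0.75 for miR-10b-3p. At e13.5, miR-10a-5p was at 0.70 with library totals and 0.034 with median-of-ratios factors, against -0.11. The causes were not tested.

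Same-numbered adult replicates did not deviate together (r = 0.00368 over 544 miRNAs). This sets 1 WT difference against 1 KO difference, so it cannot decide whether same-numbered libraries share a preparation. The labels do not say that the numbers pair libraries. With the replicate block the log2 folds were -0.54 for miR-10a-5p, -0.85 for miR-10b-5p and 0.036 for miR-10b-3p, and no member passed. The arm ratio differences between stages lay between 3.23 and 4.09 for Mir10a and between 2.57 and 3.10 for Mir10b when each library was left out. Depth limits the miR-196 arms, where 1 count in the e13.5 KO library is 0.374 CPM.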
